A study of Mus musculus with 24 samples.

Results

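Ribosome biogenesis factors were followed here as a set of 40 genes, out of 27179 genes listed in both count tables, in mouse lymph node B cells that carried or lacked PU.1 and SpiB, related transcription factors of the Ets family. Membership was set by function: a row was a member if its symbol was on a fixed list of nucleolar factors. This list was drawn up with earlier results of these data known, so it is not independent of them. A row also had to reach 0.5 CPM (a count scaled to library size) in at least 2 libraries of a stage. All 40 members passed that filter in every stage. They comprise 5 genes of RNA polymerase I transcription, 3 proteins of box C/D and 4 of box H/ACA small nucleolar ribonucleoproteins (snoRNPs), 11 small subunit factors, 11 large subunit factors and 6 proteins of nucleolar organisation.

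Ribosomes are built in the nucleolus. RNA polymerase I transcribes a long precursor RNA from the ribosomal DNA, snoRNPs guide methylation (box C/D) and pseudouridylation (box H/ACA) of that precursor, and large assemblies cut and fold it while ribosomal proteins join to form the small and large subunits. A resting lymphocyte has a small nucleolus and makes few ribosomes, whereas a B cell that is activated enlarges before it divides. The MYC transcription factor is a well known activator of genes of this pathway.

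The 24 libraries came from C57BL/6 mice and fall into 12 groups of 2, with 4 genotypes in each of 3 stages. Control cells (Cd23T/+) carried a transgene in which Cre recombinase is driven by the Cd23 regulatory sequences, which are active from the transitional B cell stage onwards. PU.1 cKO cells (Spi1fl/fl Cd23T/+) lose a floxed exon of Spi1, the gene of PU.1, through this Cre. SpiB KO cells (Spi1fl/fl Cd23+/+ Spib-/-) lack Spib in every cell, carry floxed but undeleted Spi1 and have no Cre, so they differ from control in all of these, and PU.1 SpiB DKO cells (Spi1fl/fl Cd23T/+ Spib-/-) lack Spib and carry the floxed Spi1 with Cre. According to the study, the floxed exon was still partly present in naive PU.1 SpiB DKO cells and was removed efficiently in both cultures, so naive PU.1 SpiB DKO is not a full loss of PU.1. The stages were naive B cells and B cells after 48 h of culture, either with CD40L + IL-4 (CD40 ligand and interleukin 4) or with LPS + IL-4 (bacterial lipopolysaccharide and interleukin 4). Cells were sorted as CD3- B220+ CD138-, and mice were 6 to 20 weeks old. The study's methods call the libraries of a group biological replicates, without stating whether they came from separate mice, so p-values measure only the spread between these samples, which may be technical in part.

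Total counts per library ran from 9598674 to 73658850. Spib was low in all libraries labelled SpiB KO or PU.1 SpiB DKO, and Spi1 fell in PU.1 cKO at each stage and in PU.1 SpiB DKO naive and CD40L + IL-4 cells. In naive cells Spi1 was at 155 and 174 CPM in control, 59.5 and 53.2 CPM in PU.1 cKO libraries and 103 and 110.1 CPM in PU.1 SpiB DKO. Naive PU.1 SpiB DKO lay above PU.1 cKO (0.92 ± 0.11 on the log2 scale, adjusted p = 0.000571). In LPS + IL-4, Spi1 was at 72 and 60.7 CPM in control and at 63.9 and 58.8 CPM in the libraries labelled PU.1 SpiB DKO (log2 fold change -0.11 ± 0.10, adjusted p = 0.448). Counts were summed over all exons, so they reach the deleted exon only in part and do not measure its removal. The 5 B cell markers Cd79a, Cd79b, Ms4a1, Pax5 and Cd22 summed to between 2335 and 9959.8 CPM in every library.

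A stretch of promoter sequence is shown for 3 large subunit or polymerase members. Polr1b and Nop16 had the largest rises in PU.1 SpiB DKO with CD40L + IL-4. Nop2 is shown as a member whose window holds the CACGTG E-box bound by MYC. The sequences are from RefSeq (GRCm38.p6), read 5′ to 3′ on the strand of the gene, end at or before its first annotated base and leave out every annotated exon. Capitals mark CACGTG.
Polr1b, chr2:129100746-129100969, plus strand: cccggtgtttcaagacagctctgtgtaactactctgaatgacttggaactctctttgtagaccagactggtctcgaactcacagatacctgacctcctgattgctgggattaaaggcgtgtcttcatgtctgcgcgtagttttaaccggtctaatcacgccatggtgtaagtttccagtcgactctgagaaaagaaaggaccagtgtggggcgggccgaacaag
Nop16, chr13:54590098-54590206, minus strand: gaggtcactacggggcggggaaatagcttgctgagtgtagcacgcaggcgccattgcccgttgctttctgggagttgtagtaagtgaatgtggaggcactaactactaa
Nop2, chr6:125131633-125131882, plus strand: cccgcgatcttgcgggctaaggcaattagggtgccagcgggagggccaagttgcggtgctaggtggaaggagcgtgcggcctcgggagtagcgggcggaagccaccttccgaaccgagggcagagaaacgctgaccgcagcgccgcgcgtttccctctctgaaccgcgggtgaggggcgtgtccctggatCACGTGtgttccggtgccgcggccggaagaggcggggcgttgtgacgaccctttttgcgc
Over windows from 250 bases before to 50 bases after the start site, 34 of the 40 members had a RefSeq promoter. CACGTG, which reads the same on both strands, was present in 6 of these 34 (17.6%), in 18 of 91 windows of other ribosome biogenesis genes (19.8%) and in 8.09% of all 27025 gene windows. The 6 were Imp4, Nop2, Pes1, Wdr43, Utp20 and Mybbp1a. GAGGAA, a core found in sites of PU.1 and SpiB, was searched on both strands as GAGGAA or TTCCTC and was present in 13 of 34 windows (38.2%), against 31.3% of all windows. In Nop2 the E-box began 60 bases before the start site, and in Polr1b a GAGGAA core began 27 bases before it, beyond the stretch shown.

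In control cells, transcripts of these factors were lowest in naive B cells, higher after CD40L + IL-4 and highest after LPS + IL-4. The geometric mean over the 40 members was 53.5 and 58.4 CPM in the 2 naive control libraries, 99.8 and 86.8 CPM with CD40L + IL-4, and 241 and 290.3 CPM with LPS + IL-4, on a scale set over all 24 libraries. The 3 stages did not overlap. A gene is said to have risen or fallen where edgeR's quasi-likelihood test gave a Benjamini-Hochberg adjusted p under 0.15 over all genes tested, and fold changes are log2 values ± SE. Values of a pair of libraries are given as replicate 1 and replicate 2, or with a slash between them.

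With CD40L + IL-4 against naive, 35 members rose and 1 fell, 21 and 1 of them by over 1.5-fold, and the median log2 fold change was 0.63 against 0.00 over all genes. Of all 13684 genes tested, 32.7% rose, 32% fell and 25.4% rose by over 1.5-fold. With LPS + IL-4 against naive, 39 rose and none fell (background 39% higher), 38 of them by over 1.5-fold (background 32.6%), with a median of 2.20 against 0.01. Between the cultures, all 40 were higher with LPS + IL-4 (background 29.8%), 37 of them by over 1.5-fold (background 20.3%), with a median of 1.59. Scaling by library totals alone moved the median of all genes by 0.18 and 0.19 in the comparisons with naive, gave 37 rises and 1 fall, 40 rises and 40 rises in the 3 comparisons, and turned the share of rises among all calls with CD40L + IL-4 from 50.6% to 61.0%. Stage, culture, handling and sequencing cannot be told apart here, and the CD40L + IL-4 libraries stood in a count table of their own.

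**Figure D1:**
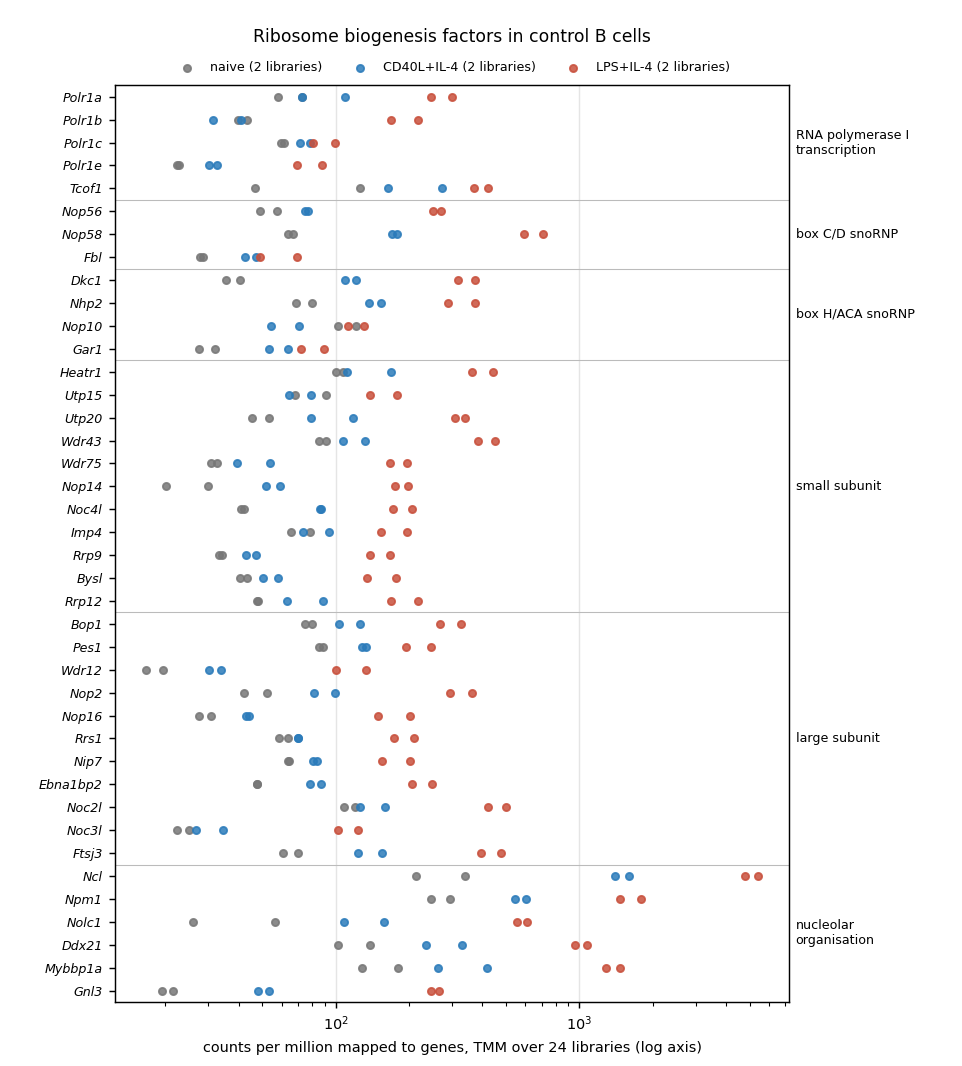
Level of each of the 40 members in the 2 control libraries of each stage, in CPM on a log axis, with members grouped by role and points for single libraries. LPS + IL-4 points lie above the naive points for 39 members that rose, with Nop10 as the exception.

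The proteins of nucleolar organisation rose most by role, with a median log2 fold change of 3.39 from naive to LPS + IL-4. Ncl, which encodes the abundant rRNA binding protein nucleolin, was at 214 and 339.9 CPM in naive control libraries, at 1597 and 1403 CPM with CD40L + IL-4 and at 4776 and 5418 CPM with LPS + IL-4. Its log2 fold change from naive was 2.44 ± 0.24 in the first culture and 4.20 ± 0.26 in the other, which is 18.4-fold. Ncl moved from rank 10 among the 40 members in naive cells to rank 2 in both cultures when ordered by deposited log2 RPKM, a value per transcript length that was normalized apart for LPS + IL-4.

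Nolc1, a chaperone of snoRNPs, was at 26 and 56.2 CPM in naive control cells and at 555 and 609.8 CPM with LPS + IL-4 (log2 fold change 3.82 ± 0.28, adjusted p = 5.49e-10). Gnl3, nucleostemin, was at 19.4 and 21.6 CPM and 245 and 266 CPM in the same groups (3.64 ± 0.18, adjusted p = 1.64e-12). Npm1, the histone chaperone nucleophosmin, was at 294 and 247 CPM and 1471 and 1794 CPM (2.59 ± 0.17, adjusted p = 7e-11). None of these groups overlapped. The naive control libraries themselves differed for Nolc1 and Ncl, and the fold of Nolc1 ranged from 3.37 to 4.48 when each library was left out in turn.

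The catalytic subunits of RNA polymerase I changed less with CD40L + IL-4 than with LPS + IL-4. Polr1a was at 58.2 and 72.4 CPM in naive cells, 109 and 72.4 CPM with CD40L + IL-4 and 247 and 300.2 CPM with LPS + IL-4. Its rise with CD40L + IL-4 (0.47 ± 0.18, adjusted p = 0.0323) was lost without control replicate 1 of that culture (0.15, adjusted p = 0.544) and without naive control replicate 1 (0.33, adjusted p = 0.233). Polr1b was at 39.6/43.3, 40.8/31.4 and 168/217 CPM in the same order. It did not pass the test with CD40L + IL-4 (log2 fold change -0.20, adjusted p = 0.386), together with Utp15, Rrs1 and Imp4, but was the member with the greatest difference between the cultures (2.41 ± 0.19).

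Among the snoRNP proteins, the dyskerin gene Dkc1, which encodes the pseudouridine synthase, was at 35.3 and 40.6 CPM in naive control, 121 and 109 CPM with CD40L + IL-4 and 317 and 372 CPM with LPS + IL-4. Nop10, its small partner in the same particle, was at 121/102, 54.3/70.6 and 112/131 CPM. Nop10 was the only member to fall with CD40L + IL-4 (log2 fold change -0.84 ± 0.17) and the only one that did not pass the test with LPS + IL-4 (0.12, adjusted p = 0.521). Nop10 thereby went from the highest log2 RPKM of the 40 in naive cells (7.31) to rank 7 with LPS + IL-4. Fbl, the rRNA 2′-O-methyltransferase fibrillarin, was at 28.5/27.7, 47.2/42.2 and 49/69 CPM, a smaller change than that of its box C/D partner Nop58, which was at 66.9/63.7, 178/170.3 and 590.5/709 CPM. The difference between the 2 fold changes was not tested.

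The subunit assembly factors rose as well. Heatr1, a component of the small subunit processome, was at 107 and 101 CPM in naive, 168 and 111 CPM with CD40L + IL-4 and 363 and 444 CPM with LPS + IL-4. Bop1, which with Pes1 and Wdr12 forms a complex needed to mature the large subunit RNA, was at 80.1/75.1, 126/104 and 269/327 CPM. The median log2 fold change from naive to LPS + IL-4 was 2.18 over the 11 small subunit factors and 2.25 over the 11 large subunit factors. Heatr1 and Bop1 kept their rise with LPS + IL-4 without any 1 library, whereas with CD40L + IL-4 both lost it without control replicate 1 of that culture (0.10, adjusted p = 0.644, and 0.42, adjusted p = 0.159). The same library decided other calls of that comparison, in which 26 members rose and 1 fell without it.

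The remainder of the pathway was examined through 106 further ribosome biogenesis genes that are not members. With LPS + IL-4, 100 of them rose and 2 fell against naive (background 39% higher and 37.9% lower), with a median of 1.56. With CD40L + IL-4, 60 rose and 10 fell (background 32.7% higher and 32% lower), with a median of 0.32. Myc was at 72 and 57.6 CPM in naive control, 95.5 and 82.9 CPM with CD40L + IL-4 and 207 and 245 CPM with LPS + IL-4. The cell cycle markers Mki67, Top2a, Ccnb1, Cdk1, Mcm5 and Pcna rose in both cultures, 6 of 6 each, and 4 of the 6 were higher with LPS + IL-4 than with CD40L + IL-4. T cell and plasmacytoid dendritic cell transcripts were lower in culture. The 5 measured T cell markers all fell with both stimuli, though Cd3d and Cd3g did not exceed 1.29 and 1.22 CPM in any library. Of the 6 plasmacytoid dendritic cell markers, 5 fell with CD40L + IL-4 and 6 with LPS + IL-4. The 4 measured macrophage or monocyte markers summed to 10.9 to 23.7 CPM in naive control. In control cells they summed to 39.0 to 55.0 CPM with CD40L + IL-4 and 11.0 to 16.8 CPM with LPS + IL-4. In whole-population RNA, fewer cells of a type and less RNA per cell cannot be told apart.

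In naive B cells part of the set rose modestly in PU.1 cKO and in PU.1 SpiB DKO, of which the latter kept the higher Spi1 level given above. In PU.1 cKO, 11 members rose and 1 fell (background 7.41% higher and 9.84% lower of 12500 genes), with a median log2 fold change of 0.25 against -0.01 over all genes. In PU.1 SpiB DKO, 13 rose and 1 fell (background 18.2% higher and 16.6% lower), with a median of 0.14 against 0.00. Of the 13, 1 rose by over 1.5-fold, against 12.6% of all genes. In SpiB KO, 1 rose and 2 fell (background 7.24% higher and 5.39% lower). With the replicate number as a block, which pairs the naive libraries, the counts were 21 rises and 4 falls in PU.1 cKO (background 14.6% and 17.5%) and 6 rises and 8 falls in SpiB KO (background 13.1% and 13.7%). These counts rested on single libraries: in PU.1 cKO 2 members were called without either PU.1 cKO library and 4 without control replicate 2, in PU.1 SpiB DKO 3 without PU.1 SpiB DKO replicate 1 and 8 without control replicate 2, and in SpiB KO none without SpiB KO replicate 1 or control replicate 2, 1 without SpiB KO replicate 2 and 7 without control replicate 1.

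Polr1b led the rises in naive cells. It was at 36.4 and 41.4 CPM in control, 71 and 62.7 CPM in PU.1 cKO libraries, 52.6 and 44.6 CPM in SpiB KO and 57.8 and 61.2 CPM in PU.1 SpiB DKO, here on a scale set within the stage. Every mutant library was above both control libraries, and the fold change passed the test in PU.1 cKO (0.78 ± 0.14, adjusted p = 0.0102) and PU.1 SpiB DKO (0.61 ± 0.14, adjusted p = 0.013) but not in SpiB KO (0.32 ± 0.14, adjusted p = 0.234). Polr1b lies on chromosome 2, 38.0 Mb from Spi1. Nop10 (21.1 Mb from Spi1) and Nop56 (39.2 Mb) lie on the same chromosome, and Fbl lies on chromosome 7, 16.3 Mb from Spib.

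Wdr12, of the large subunit complex with Bop1, was at 18 and 15.9 CPM in control and 27.8 and 24.9 CPM in PU.1 cKO (0.64 ± 0.15, adjusted p = 0.0382). All 4 box H/ACA members rose in PU.1 SpiB DKO. Of these, Nhp2 was at 73.7 and 65.9 CPM in control, 105 and 95.3 CPM in PU.1 cKO libraries and 113 and 87.1 CPM in PU.1 SpiB DKO (0.52 ± 0.14, adjusted p = 0.0311). Nop10, Gar1 and Dkc1 rose there by 0.47, 0.38 and 0.43. Nop16, a large subunit factor, was at 28.2 and 26.3 CPM in control and was called higher in each mutant, at 39.1/37.7, 35.4/36 and 42.7/36.4 CPM in PU.1 cKO, SpiB KO and PU.1 SpiB DKO. Its rise in SpiB KO (0.39 ± 0.13, adjusted p = 0.132) was not kept by DESeq2 (adjusted p = 0.219) or voom (adjusted p = 0.164).

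The abundant Npm1 rose from 270.5 and 236 CPM in control to 336 and 353 CPM in PU.1 cKO (0.44 ± 0.11, adjusted p = 0.0454) and 355 and 321 CPM in PU.1 SpiB DKO (0.42 ± 0.11, adjusted p = 0.0285). Fbl rose in PU.1 cKO, from 26.2/26.5 to 38.4/34.8 CPM. Ncl, in contrast, was at 196 and 325 CPM in control and at 189/279, 173/263 and 226/340.2 CPM in the mutants, where replicate 2 was the higher library in each genotype and no difference passed the test. Outside Polr1b, these calls rested on single libraries. Wdr12 lost its call without PU.1 cKO replicate 1 (0.56, adjusted p = 0.24), Fbl, Npm1 and Nhp2 lost theirs in PU.1 cKO without either PU.1 cKO library or control replicate 2, and Nhp2, Nop16 and Npm1 lost theirs in PU.1 SpiB DKO without its replicate 1 (0.32 to 0.42). The remaining calls in naive PU.1 cKO were rises of Nop10, Nop58, Nip7, Wdr43 and Rrp9 between 0.35 and 0.49.

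Tcof1, which encodes treacle, a nucleolar phosphoprotein of ribosomal DNA transcription, was the sole member called lower in naive PU.1 cKO and in PU.1 SpiB DKO cells. It was at 43.1 and 121 CPM in the control libraries, 29.2 and 27.3 CPM in PU.1 cKO libraries, 18.5 and 30.3 CPM in SpiB KO and 18.9 and 38.7 CPM in PU.1 SpiB DKO. All 6 mutant libraries were below both controls, and the control libraries differed from each other by 1.49 on the log2 scale. The log2 fold change in PU.1 cKO was -1.53 ± 0.46 with both controls (adjusted p = 0.0795) and -0.61 without control replicate 2 (adjusted p = 0.445). In SpiB KO it was -1.74 ± 0.46 with both and -0.82 without that library (adjusted p = 0.376), and in PU.1 SpiB DKO it was -1.50 ± 0.46 with both and -0.58 without that library (adjusted p = 0.364). The calls were also lost without either PU.1 cKO library, without SpiB KO replicate 1 and without PU.1 SpiB DKO replicate 1. Polr1a was also lower in SpiB KO, at 38.3 and 41.7 CPM against 53.5 and 69.2 CPM in control (-0.62 ± 0.16, adjusted p = 0.0591), a call lost without either SpiB KO library or control replicate 2.

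No member passed the test between naive PU.1 SpiB DKO and naive PU.1 cKO (edgeR; 0 at an unadjusted p under 0.05, 0 by DESeq2 and voom; background 18.1% in either direction), nor in the PU.1 by SpiB interaction, which asks whether PU.1 SpiB DKO differs from the sum of the single mutants (edgeR; 4 at an unadjusted p under 0.05, 1 by DESeq2, 0 by voom; background 0.936%). With the replicate block the interaction counted 5 members higher and 1 lower (background 6.74% and 4.57%). The test of PU.1 SpiB DKO relative to PU.1 cKO then counted 1 higher (background 16.4%). Spi1 itself differed between these mutants in naive cells, so both tests compare unequal Spi1 levels as well as Spib. Control carried Cre without floxed Spi1, and SpiB KO carried floxed Spi1 without Cre. At every stage, effects of these do not cancel in the interaction and cannot be told apart from it. Without control replicate 1 the median interaction over the members was -0.07, against -0.12 with all libraries of the stage. Among the 106 further ribosome biogenesis genes, 15 rose and 5 fell in naive PU.1 SpiB DKO (background 18.2% higher and 16.6% lower). Rpf2, a large subunit factor, was at 20.8 and 22.4 CPM in control and 38.12 and 34.7 CPM there (0.75 ± 0.14), and Nle1 at 13.4/10.7 and 17/19.6 CPM (0.60 ± 0.18). Exosc10, a nuclease of the nuclear exosome, was at 51.3/64 and 35.7/45.4 CPM (-0.51 ± 0.17), and Sdad1 at 63.5/67.4 and 46.9/53.7 CPM (-0.38 ± 0.14).

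Transcripts of other cell types moved with Spib loss in the naive libraries. The 6 plasmacytoid dendritic cell markers summed to 199 to 321 CPM in control, 233 to 253 CPM in PU.1 cKO, 1062 to 1336 CPM in SpiB KO and 1410.1 to 1508 CPM in PU.1 SpiB DKO, with 6 of 6 called higher in the last 2 groups. The 5 measured T cell markers summed to 64.2 to 98 CPM in control cells, 319 to 381 CPM in SpiB KO and 486 to 497 CPM in PU.1 SpiB DKO, where 3 were called higher. Of these markers, Cd3d and Cd3g did not exceed 1.29 and 1.22 CPM in any library. The T cell sums therefore come almost wholly from Cd4, Cd8a and Lck. The 4 measured macrophage or monocyte markers summed to 10.9 to 23.7 CPM in control cells, 52.0 to 63.5 CPM in SpiB KO and 71.9 to 73.0 CPM in PU.1 SpiB DKO, where 3 were called higher. Their part in the values of the members was not tested.

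**Figure D2:**
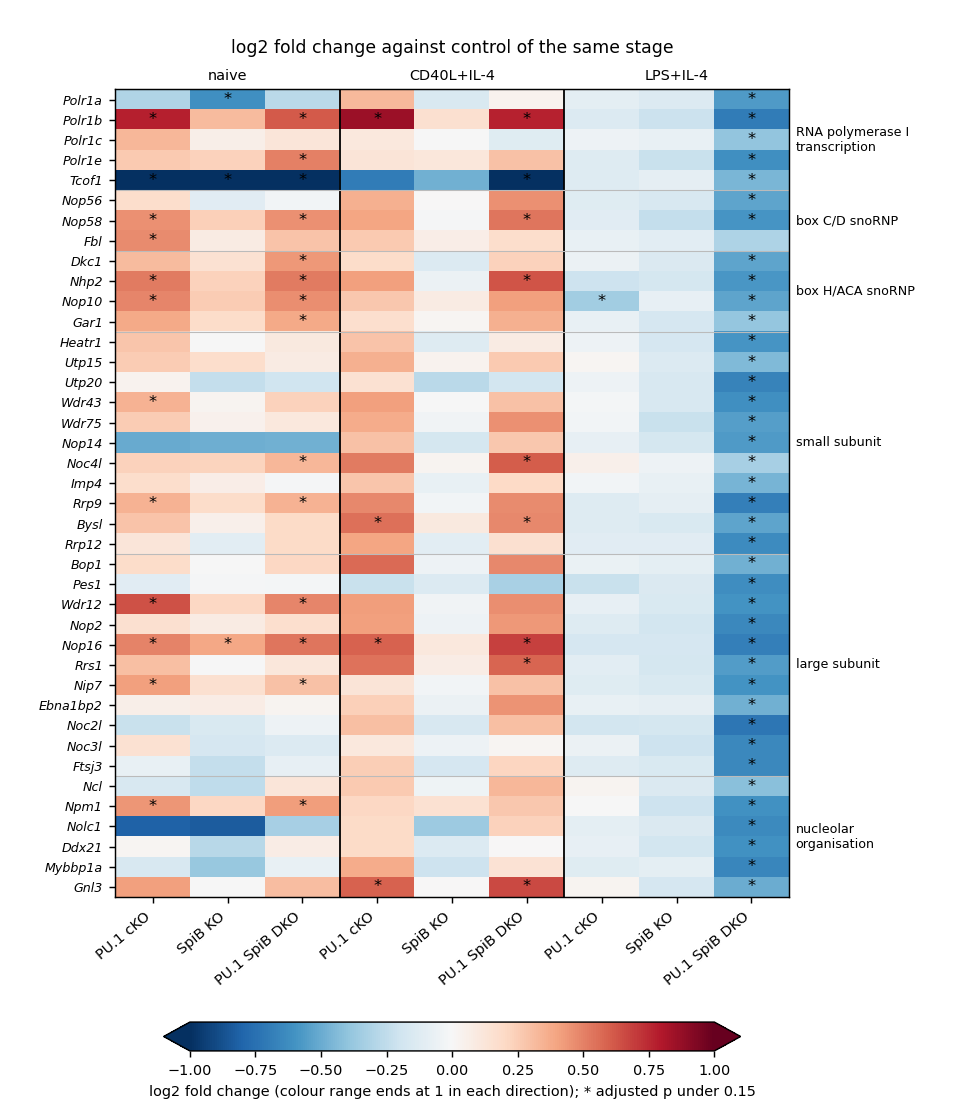
Log2 fold change of each of the 40 members (rows, grouped by role) in each mutant genotype against control of the same stage (columns), with a mark where the adjusted p was under 0.15. The LPS + IL-4 PU.1 SpiB DKO column is marked in 39 of 40 rows, all lower, while the marks of the other columns are scattered and mostly higher.

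After CD40L + IL-4, most members lay above control in both mutants without PU.1. In PU.1 cKO, 38 of 40 log2 fold changes were above 0, with a median of 0.30 against -0.01 over all genes, and 4 members rose and none fell (background 7.81% higher and 8.84% lower of 12721 genes). In PU.1 SpiB DKO, 36 of 40 were above 0, with a median of 0.29, and 8 rose and 1 fell (background 12.5% higher and 12.7% lower), 5 of the 8 by over 1.5-fold (background 9.13%). In SpiB KO no member passed the test (edgeR; 0 at an unadjusted p under 0.05, 0 by DESeq2 and voom; background 0.0786% higher and 0.055% lower), with a median of -0.04. With 4 and 8 of 40 members called higher, the shares in the mutants without PU.1 were near the background in this fit. Without a filter on low counts, 13 and 16 were higher (background 7.83% and 10.8%). By voom 5 and 12 were higher (background 8.54% and 12.7%), and by DESeq2 6 and 9 (background 7.24% and 10.8%). RLE size factors gave 4 and 7 (background 7.71% and 12.3%).

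The 4 members called in PU.1 cKO were also called in PU.1 SpiB DKO. Polr1b was at 42.3 and 32.1 CPM in control, 67.9 and 66.7 CPM in PU.1 cKO libraries, 32.3 and 50.8 CPM in SpiB KO and 55.7 and 71 CPM in PU.1 SpiB DKO. Polr1b differed from control by 0.85 ± 0.23 in the former mutant (adjusted p = 0.0397) and 0.77 ± 0.23 in PU.1 SpiB DKO (adjusted p = 0.0482). All 4 libraries without PU.1 were above both controls, and the SpiB KO libraries straddled them. Gnl3 was at 55.4 and 49 CPM in control, 80.0 and 77.3 CPM in PU.1 cKO libraries and 77 and 88.3 CPM in PU.1 SpiB DKO (0.66 ± 0.19, adjusted p = 0.0409).

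Nop16 was at 44.3 and 44.9 CPM in control, 62.9 and 71.1 CPM in PU.1 cKO libraries and 61.6 and 81.5 CPM in PU.1 SpiB DKO (0.68 ± 0.21, adjusted p = 0.0516). Bysl, a small subunit factor, was the remaining call in PU.1 cKO and was at 59.7 and 51.5 CPM in control, 77.5 and 85.8 CPM in PU.1 cKO libraries and 66.3 and 88.6 CPM in PU.1 SpiB DKO. For both genes the mutant libraries lay above both controls. PU.1 SpiB DKO added rises of Nhp2, from 141/156 to 209/252 CPM (0.63 ± 0.21, adjusted p = 0.0717), and of Noc4l, Rrs1 and Nop58 (0.54 to 0.61). Whether these differ between the mutants was tested directly and no member passed (edgeR; 0 at an unadjusted p under 0.05, 0 by DESeq2 and voom; background 4.23% in either direction).

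Tcof1 fell in PU.1 SpiB DKO, from 282 and 167 CPM in control to 113 and 90.0 CPM (-1.15 ± 0.31, adjusted p = 0.0347), with the single mutants between, at 174 and 104 CPM in PU.1 cKO libraries and 199 and 124 CPM in SpiB KO. Replicate 1 was the higher library in all 4 genotypes, and the fall was lost without control replicate 1 (-0.72, adjusted p = 0.27) or PU.1 SpiB DKO replicate 2 (-0.98, adjusted p = 0.183). Tcof1, Pes1, Utp20 and Polr1c were the 4 members with a log2 fold change below 0 in PU.1 SpiB DKO. Of the 106 further genes, 23 rose in PU.1 SpiB DKO and none fell (background 12.5% higher and 12.7% lower). The largest rises were of Mrto4, from 38.7/41.3 to 57.4/88.2 CPM (0.87 ± 0.26), and Rpf2, from 42.1/44.8 to 70.7/83.6 CPM (0.83 ± 0.19). The PU.1 by SpiB interaction called no member with CD40L + IL-4 (edgeR; 0 at an unadjusted p under 0.05, 0 by DESeq2 and voom; background 1.17%).

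Single libraries decided the counts of this culture. The geometric mean of the 40 members was 103 and 88.7 CPM in control, 115 and 121 CPM in PU.1 cKO libraries, 80.4 and 105 CPM in SpiB KO and 105 and 127 CPM in PU.1 SpiB DKO. Without PU.1 SpiB DKO replicate 2 no member was called in PU.1 SpiB DKO, although only 8 of 40 fold changes were below 0, and without PU.1 SpiB DKO replicate 1 there were 13 rises and 1 fall. Without control replicate 2, 3 rose and 1 fell, and without control replicate 1, 4 rose and none fell. In PU.1 cKO, 6 members rose without control replicate 1, none rose and 1 fell without control replicate 2, 1 rose without PU.1 cKO replicate 2, and 1 rose and 1 fell without PU.1 cKO replicate 1. Polr1b kept its rise in PU.1 SpiB DKO without control replicate 1 but not without control replicate 2 (0.58, adjusted p = 0.202) or PU.1 SpiB DKO replicate 2 (0.59, adjusted p = 0.251). Gnl3 lost its call there without the same libraries (0.58 and 0.57), and Nop16 without control replicate 1 (0.67) or PU.1 SpiB DKO replicate 2 (0.47). PU.1 SpiB DKO replicate 1 also held the highest share of Rn45s, the 45S ribosomal precursor RNA, at 6.64% of its counts against 0.416 to 1.86% in the other 7 libraries of the culture. In the other stages the highest shares were 3.62% in naive control replicate 1, against 0.185 to 0.574% in the other 7, and 3.26% in LPS + IL-4 PU.1 cKO replicate 2, against 0.49 to 1.79%. Their part in the values of the members was not tested.

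With LPS + IL-4, 39 of 40 members fell in the libraries labelled PU.1 SpiB DKO, and none rose. The background was 22.4% lower and 25.6% higher of 12445 genes, and 20 of the 39 fell by over 1.5-fold, against 6.52% of all genes. For all 40 members both PU.1 SpiB DKO libraries lay below the 6 others, which held for 17.1% of all genes. The log2 fold changes were between -0.72 and -0.31, with a median of -0.58 against 0.01 over all genes. In the mutants that lack a single factor few members passed the test. In PU.1 cKO 1 member fell (background 11.2% higher and 7.8% lower) with a median of -0.09, and in SpiB KO none passed the test (edgeR; 3 at an unadjusted p under 0.05, 0 by DESeq2 and voom; background 3.65% higher and 1.48% lower) with a median of -0.15. With the replicate block, which pairs the LPS + IL-4 libraries, 4 members were lower in PU.1 cKO (background 13.3%), as were 4 in SpiB KO (background 5.19%). The control libraries differed from each other, and without control replicate 1 the counts were 9 in PU.1 cKO, and 10 for SpiB KO. Without control replicate 2 none was called in either, and the median in PU.1 cKO was 0.04.

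**Figure D3:**
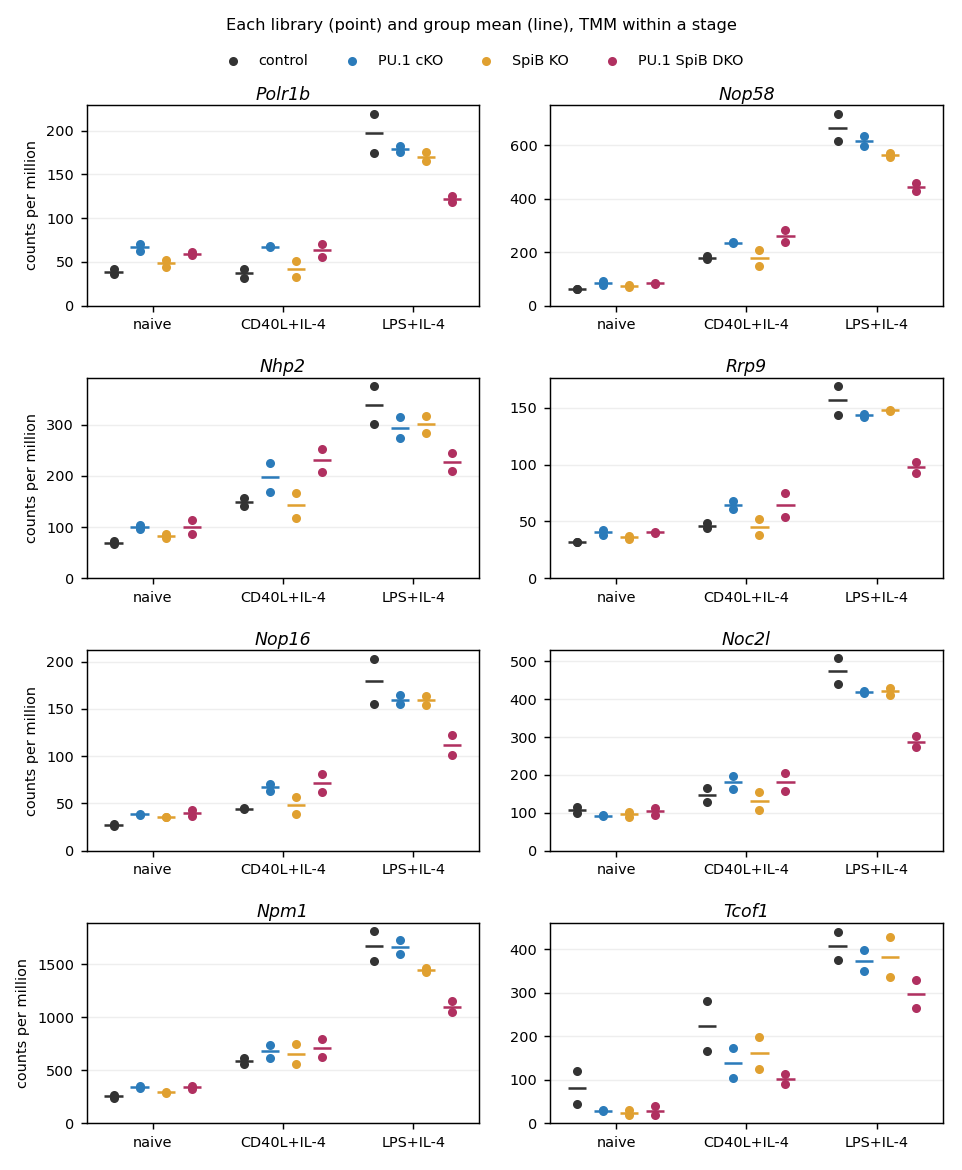
CPM of Polr1b, Nop58, Nhp2, Rrp9, Nop16, Noc2l, Npm1 and Tcof1 in each of the 24 libraries, scaled within each stage, with a point for each library, a line for the mean of 2 and a colour for each genotype. With LPS + IL-4 both PU.1 SpiB DKO points lie below the 6 others in every panel, while naive Tcof1 shows 1 control library far above all others.

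The fall reached every role. The geometric mean over members was 251 and 294 CPM in control, 251 and 261 CPM in PU.1 cKO libraries, 247 and 245 CPM in SpiB KO, and 180.1 and 190.3 CPM in the libraries labelled PU.1 SpiB DKO. By role, 5 of 5 polymerase I genes fell (median -0.57), 2 of 3 box C/D proteins (-0.52), 4 of 4 box H/ACA proteins (-0.53), 11 of 11 small subunit factors (-0.56), 11 of 11 large subunit factors (-0.62) and 6 of 6 nucleolar proteins (-0.61). Fbl was the member that did not pass, at 51.1 and 69.8 CPM in control and 49.4 and 48.4 CPM in PU.1 SpiB DKO (-0.31 ± 0.16, adjusted p = 0.179).

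Noc2l, a factor of early large subunit assembly, had the greatest fall. It was at 440.1 and 508 CPM in control, 416 and 421 CPM in PU.1 cKO libraries, 412 and 429.6 CPM in SpiB KO and 272 and 303 CPM in PU.1 SpiB DKO (-0.72 ± 0.09, adjusted p = 0.000447). Of its exon bases, 20.9% are shared with the neighbouring gene Samd11, so part of its count can belong to either. Polr1b was at 175 and 219.5 CPM in control, 176 and 183 CPM in PU.1 cKO libraries, 166 and 175 CPM in SpiB KO and 118 and 125 CPM in PU.1 SpiB DKO (-0.70 ± 0.11, adjusted p = 0.00119). Nop16 was at 155/203, 156/164, 154/164 and 101/122 CPM in the same order (-0.68 ± 0.13, adjusted p = 0.00419). For each of these 3 genes the PU.1 SpiB DKO libraries lay below the other 6.

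The most abundant members fell too. Ncl was at 4978 and 5482 CPM in control and 3916 and 3894 CPM in PU.1 SpiB DKO (-0.42 ± 0.12, adjusted p = 0.0231), a call lost without PU.1 SpiB DKO replicate 1 (-0.42, adjusted p = 0.166). Npm1 was at 1533 and 1815 CPM in control and 1049 and 1153 CPM in PU.1 SpiB DKO (-0.60 ± 0.11, adjusted p = 0.00295). Nop2, an rRNA methyltransferase of the large subunit, was at 308/365 and 210.4/219.6 CPM (-0.65 ± 0.09, adjusted p = 0.000751), and Mybbp1a, a nucleolar protein that binds Myb, at 1337/1479 and 868/925 CPM (-0.65 ± 0.09, adjusted p = 0.000759).

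Representatives of the other roles fell by similar amounts. Polr1a was at 257 and 304 CPM in control and 184 and 195 CPM in PU.1 SpiB DKO (-0.57 ± 0.09, adjusted p = 0.00151). Nop56 was at 260.1/274 and 184/187 CPM (-0.52 ± 0.08, adjusted p = 0.00157), and Dkc1 at 330.3/376 and 246/244 CPM (-0.53 ± 0.08, adjusted p = 0.00134). Heatr1 and Bop1 stand for the small and large subunit. Heatr1 was at 379/449 and 268/282 CPM (-0.59 ± 0.09, adjusted p = 0.0014), and Bop1 at 280.3/331 and 206/233 CPM (-0.48 ± 0.10, adjusted p = 0.00501). Tcof1, whose replicates spread widely in the other stages, was at 439 and 374 CPM in control and 328 and 266 CPM in PU.1 SpiB DKO (-0.45 ± 0.14, adjusted p = 0.0373).

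PU.1 cKO cells and PU.1 SpiB DKO cells both carry Cre and floxed Spi1, and by their labels they differ in Spib alone, although Spi1 counts with LPS + IL-4 were also higher in PU.1 SpiB DKO (0.52 ± 0.10 on the log2 scale, adjusted p = 0.00944). With LPS + IL-4, 38 members were lower in the libraries labelled PU.1 SpiB DKO than in those of PU.1 cKO and none higher (background 16.8% lower), with a median of -0.48. Utp20, a small subunit processome factor, was at 330.1 and 309.8 CPM in PU.1 cKO libraries and 215 and 203 CPM in PU.1 SpiB DKO (-0.61 ± 0.09, adjusted p = 0.00284), and Wdr43 of the same assembly at 411/434 and 282/277 CPM (-0.59 ± 0.09, adjusted p = 0.00302). Npm1 differed by -0.60 ± 0.11 (adjusted p = 0.00754). Nop10 and Fbl did not pass (-0.18, adjusted p = 0.243, and -0.23, adjusted p = 0.342). Nop10 was the member that had fallen in PU.1 cKO alone, from 117/132 to 97/99.4 CPM (-0.34 ± 0.10, adjusted p = 0.0653), a call lost without control replicate 2 (-0.25, adjusted p = 0.248) or either PU.1 cKO library.

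The PU.1 by SpiB interaction with LPS + IL-4 was below 0 for all 40 members, between -0.46 and -0.10 with a median of -0.33, but no member passed the test (edgeR; 22 at an unadjusted p under 0.05, 4 lower by DESeq2, 0 by voom; background 1.48% in either direction). With the replicate block 26 members were lower (background 5.38% lower). Leaving out each library in turn gave medians between -0.44 (without control replicate 2) and -0.24 (without control replicate 1). Without a filter on low counts 10 members were lower (background 2.25% lower). As in naive cells, effects of Cre and of floxed Spi1 do not cancel in the interaction and cannot be told apart from it.

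Other transcripts moved with the same libraries. Of the 106 further ribosome biogenesis genes, 94 fell in PU.1 SpiB DKO with LPS + IL-4 and none rose (background 22.4% lower and 25.6% higher), with a median of -0.45. Against PU.1 cKO, 87 were lower (background 16.8%). The largest falls were of Pno1, a small subunit factor, from 306/361 to 169.6/205 CPM (log2 fold change -0.83 ± 0.11), and of Pwp2, of the small subunit processome, from 159/195 to 99.2/109 CPM (-0.77 ± 0.11). Genes of the RNA exosome fell in 12 of 14 cases, and 7 of 11 further polymerase I genes fell. The plasma cell markers Sdc1, Prdm1, Xbp1, Igj, Bhlha15 and Creb3l2 summed to 392 to 396 CPM in control, 729.9 to 808 CPM in PU.1 cKO, 436 to 483 CPM in SpiB KO and 1100.1 to 1127 CPM in PU.1 SpiB DKO, with 5 of 6 called higher in PU.1 SpiB DKO. Plasma cell markers were also higher in PU.1 SpiB DKO with CD40L + IL-4, where 5 of 6 were called higher. There they summed to 1736 to 1909 CPM against 809.8 to 963 CPM in control. Xbp1 reached 1760 CPM in a cultured library and no other plasma cell marker exceeded 59.3 CPM (Prdm1), so these sums were mostly Xbp1. Cell cycle markers with LPS + IL-4 summed to 2741 to 2983 CPM in control and 2755 to 3157 CPM in PU.1 SpiB DKO, with 1 of 6 called higher and 2 lower. The part of these transcripts in the values of the members was not tested. Of the 15 measured T cell, plasmacytoid dendritic cell and macrophage or monocyte markers, 6 (Cd3d, Cd4, Siglech, Klk1, Csf1r and Lyz2) were under 0.5 CPM in every cultured library. The other 9 (Cd3g, Cd8a, Lck, Bst2, Ccr9, Cox6a2, Pacsin1, Emr1 and Cd68) reached between 0.653 CPM (Cd3g) and 89.8 CPM (Bst2) in a cultured library. Among the T cell markers, Lck reached 74 CPM and Cd8a 1.78 CPM, so the T cell sums in culture were almost all Lck. With LPS + IL-4 the 5 measured T cell markers summed to 17.8 to 17.9 CPM in control and 55.9 to 59.2 CPM in PU.1 SpiB DKO, the 4 macrophage or monocyte markers to 11.0 to 16.8 and 5.42 to 6.09 CPM, and the 6 plasmacytoid dendritic cell markers to 76.7 to 96.4 and 46.9 to 47.1 CPM.

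Myc rose in PU.1 SpiB DKO in one culture and fell in the other. With CD40L + IL-4 it was at 99 and 84.8 CPM in control, 163 and 191 CPM in PU.1 cKO libraries, 83.3 and 129.6 CPM in SpiB KO and 141 and 173 CPM in PU.1 SpiB DKO (0.77 ± 0.22 in PU.1 SpiB DKO, adjusted p = 0.0385). With LPS + IL-4 it was at 215/247, 222/219, 205/219.8 and 167/174 CPM in the same order (-0.44 ± 0.09 in PU.1 SpiB DKO, adjusted p = 0.00438). The difference between these effects was -1.30 ± 0.25 (adjusted p = 0.00296). Its part in the values of the members was not tested.

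The PU.1 SpiB DKO effect was then compared between the 2 cultures. Of the 40 members, 36 had a log2 fold change above 0 with CD40L + IL-4 and below 0 with LPS + IL-4. The share of all genes with these signs was not counted, so this number has no background. The difference between the effects was tested in a fit of all 24 libraries, where 37 members were lower with LPS + IL-4 and none higher (background 15% lower), 35 of them by over 1.5-fold (background 11.5%), with a median of -0.97 against 0.00. With library totals alone, which moved the median of all genes by 0.11 and the share of higher among all calls from 47.6% to 61.6%, 31 were lower. The controls of the 2 cultures also differ in level, so the effect of a genotype was compared on the log2 scale only.

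**Figure D4:**
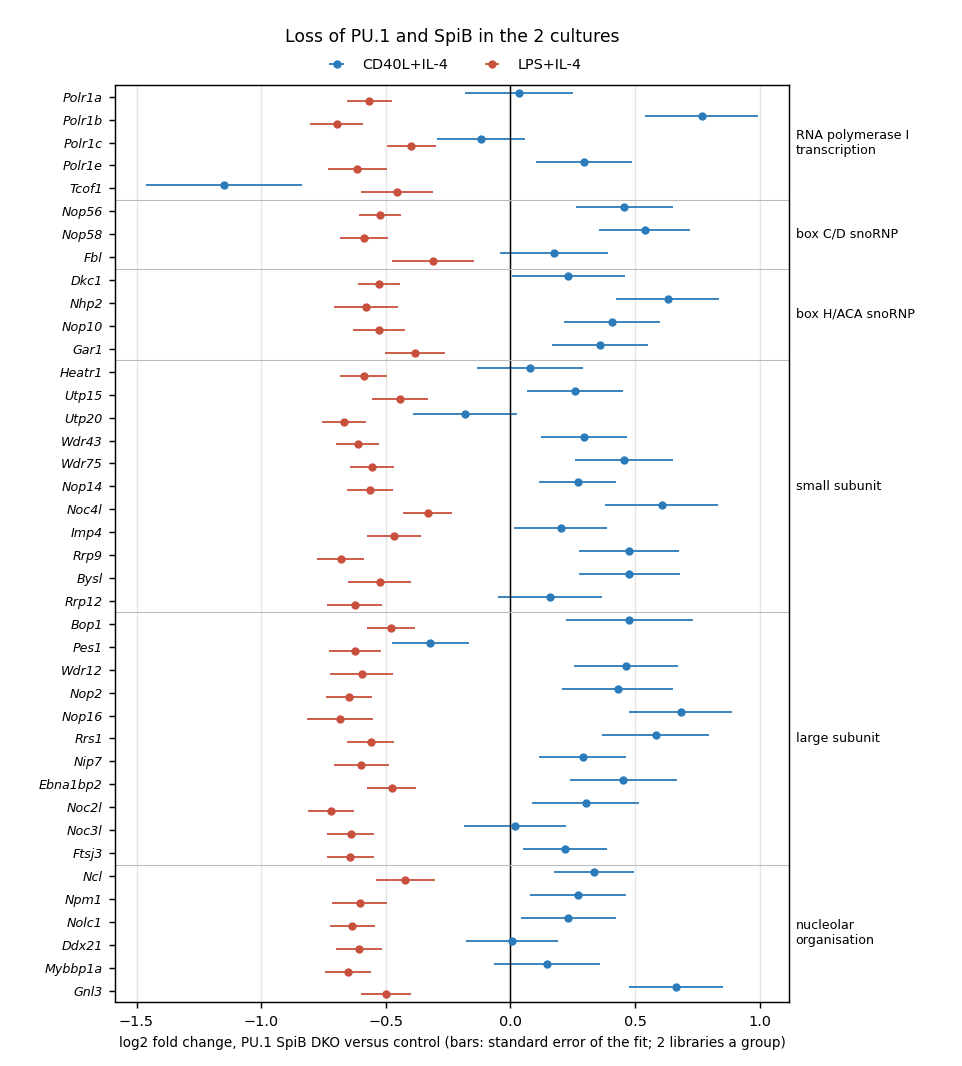
Log2 fold change of PU.1 SpiB DKO against control (horizontal axis) for each of the 40 members (vertical axis, grouped by role), with CD40L + IL-4 and LPS + IL-4 in separate colours and bars for the standard error of the fit over 2 libraries a group. For 36 members the CD40L + IL-4 point lies above 0 and the LPS + IL-4 point below it. Tcof1, Pes1, Utp20 and Polr1c lie below 0 in both.

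Polr1b had the greatest difference between the effects (-1.55 ± 0.25, adjusted p = 0.00106), having risen in one culture and fallen in the other as given above. Nop16 followed (-1.45 ± 0.25, adjusted p = 0.00128), and then Nhp2 (-1.29 ± 0.26, adjusted p = 0.00377). All 11 small subunit, 11 large subunit, 6 nucleolar and 4 box H/ACA members had a lower effect with LPS + IL-4. Among the fixed representatives of the roles, the difference was -0.68 for Polr1a, -1.06 for Nop56, -0.84 for Dkc1, -0.75 for Heatr1, -1.04 for Bop1, -0.84 for Ncl and -0.96 for Npm1, of which Ncl, Polr1a, Dkc1 and Heatr1 did not pass without LPS + IL-4 control replicate 2. Fbl, Polr1c and Tcof1 did not pass (-0.57, -0.36 and 0.61, with adjusted p = 0.181, 0.257 and 0.476). Leaving out single libraries gave between 24 members (without LPS + IL-4 control replicate 2) and 39, and of the 106 further genes 88 had a lower effect.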

How the data were processed

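RNA from 24 mouse B cell samples was sequenced from libraries that do not mark strand. The authors aligned reads to GRCm38/mm10 with Subread, kept unique alignments and deposited whole-number counts per gene from featureCounts over RefSeq exons. Versions of these tools are not given in the sources used here. Deposited beside them were log2 RPKM values, normalized by quantiles by the authors, jointly for naive and CD40L + IL-4 and separately for LPS + IL-4. These served only to rank members within a stage. Of the rows, 517 had no symbol (0.0859 to 0.4527% of counts) and were left out.

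Counts were filtered at 0.5 CPM in at least 2 libraries, normalized by TMM and tested with the quasi-likelihood test of edgeR 4.0.16 in R 4.3.3, with Benjamini-Hochberg adjustment over all genes and a threshold of 0.15. Each stage was fitted with its 8 libraries. Comparisons between stages used all 24 libraries. The scripts were tested on simulated data. A single value cannot go below p = 0.333 in an exact two-sided permutation test of 2 against 2. Alternatives were RLE size factors, library totals, no filter, DESeq2 1.42.0, voom with limma 3.58.1, a replicate block, all 24 libraries in the fit, an adjusted p under 0.05 and leaving out each library.

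The members and lists were chosen with earlier results of these data known. Members given library by library were the 3 with the largest log2 fold change in each direction that passed the test without overlap, a fixed set of representatives (Polr1a, Nop56, Fbl, Dkc1, Heatr1, Bop1, Ncl and Npm1), and from the further genes the 2 largest in each direction in PU.1 SpiB DKO. Bysl, Nop2, Mybbp1a and Nop10 with LPS + IL-4, Polr1b with CD40L + IL-4 against naive, and single values in SpiB KO were added after their values were seen. Library values were also given outside the rule for other members, among them Nop58 over the stages and Tcof1 in PU.1 SpiB DKO with LPS + IL-4. Same-numbered libraries of a stage deviated together in 6 of 6 genotype pairs in naive (r from 0.14 to 0.33) and LPS + IL-4 (0.41 to 0.57) and were taken as pairs there, and in 4 of 6 with CD40L + IL-4, where they were not. Depth ran from 9598674 to 73658850 counts, with a median of 16658100.

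By exon annotation (GENCODE vM21), 12 of the 40 members share an exon base with another gene, and 1, Noc2l, shares over 10%. One further B cell marker of the list is not reported here.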

Additional observations from a re-analysis of the deposited data

Results flagged for a closer look

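The PU.1 SpiB DKO effect differed between the 2 cultures for 37 members by a test of the difference itself, with each effect lower with LPS + IL-4 than with CD40L + IL-4. The largest differences were those of Polr1b (-1.55 on the log2 scale), Nop16 (-1.45) and Nhp2 (-1.29), which were higher than control with CD40L + IL-4 and lower than control with LPS + IL-4. The plasma cell markers summed to higher values in PU.1 SpiB DKO than in control in both cultures, as given above, and their part in the difference was not tested. The cultures also differ in the count table, handling and sequencing that went with them, which cannot be told apart from the stimulus for the levels of a stage.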

How the results depend on the processing

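The fall with LPS + IL-4 in PU.1 SpiB DKO had between 37 and 40 calls when each library was left out, against PU.1 cKO 26 to 37, and the rise of control cells from naive to LPS + IL-4 39. Leaving out libraries gave 2 to 14 calls for naive PU.1 cKO, 0 to 7 for SpiB KO, 3 to 13 for PU.1 SpiB DKO and 0 to 3 for the interaction. It gave 1 to 6 for PU.1 cKO and 0 to 14 for PU.1 SpiB DKO with CD40L + IL-4, and 0 to 9 for PU.1 cKO, 0 to 10 for SpiB KO and 0 to 22 for the interaction with LPS + IL-4. In control cells it gave 27 to 36 for CD40L + IL-4 against naive and 37 to 39 between the cultures, and 24 to 39 for the difference of the PU.1 SpiB DKO effects. The comparisons with 0 calls (PU.1 SpiB DKO relative to PU.1 cKO in naive cells, and with CD40L + IL-4 that comparison, SpiB KO and the interaction) stayed at 0.

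At an adjusted p under 0.05 the calls were 3 for naive PU.1 cKO, 0 for SpiB KO and 8 for PU.1 SpiB DKO, 1 and 3 for PU.1 cKO, then PU.1 SpiB DKO, with CD40L + IL-4, and 0 for PU.1 cKO with LPS + IL-4. Without a filter they were 5 for naive SpiB KO, 1 for PU.1 SpiB DKO relative to PU.1 cKO and 4 for the interaction, 14 and 17 for PU.1 cKO, then PU.1 SpiB DKO, with CD40L + IL-4, and 10 for the interaction with LPS + IL-4. DESeq2 gave 1 higher for the naive interaction (background 2.33%) and 4 lower for the interaction with LPS + IL-4 (background 1.41%). It gave 6 higher and 1 lower for PU.1 cKO with CD40L + IL-4 (background 7.24% and 7.78%). By voom, 2 were lower for PU.1 cKO with LPS + IL-4 (background 9.35%). With all 24 libraries in the fit the naive interaction had 1 call, and PU.1 cKO with LPS + IL-4 had 0. In that fit PU.1 cKO, then PU.1 SpiB DKO, with CD40L + IL-4 had 16 and 21. The shares of all genes called in that fit are not given here, so these counts are not read against a background.

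With the replicate block, naive PU.1 cKO had 25, SpiB KO 14, PU.1 SpiB DKO relative to PU.1 cKO 1 and the interaction 6 calls. With LPS + IL-4 the block gave 4 for PU.1 cKO, 4 for SpiB KO and 26 for the interaction. With CD40L + IL-4, where the libraries share only a number, the block gave 14 for PU.1 cKO, 18 for PU.1 SpiB DKO and 1 between them. Other counts stayed within 1.5 times, and no value changed direction among 858 that kept their side of the threshold and 95 that lost it. Where a count changed, the cause was not tested beyond the smaller number of libraries or the stricter threshold itself. With 2 libraries a group, differences of modest size were not detectable for every member.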
